A study of Mus musculus with 24 samples.

Results

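The comparison was between CCR7-PDPN cells, which carry the chemokine receptor CCR7 and were sorted for podoplanin (PDPN) on their surface, and X2 cells, which carry the control vector. It was made in batch 1, made again in batch 2, and then compared between the batches. Both are derivatives of EO771 (labelled E0771), a mammary carcinoma line from a spontaneous tumour of C57BL/6 mice. A PLNCX2 retroviral vector brought mouse Ccr7 cDNA into the CCR7-PDPN cells, so reads of the vector and of the cell's own Ccr7 gene cannot be told apart. The tdTomato reporter is shown in X2 as well as in CCR7-PDPN cells in the paper. Podoplanin had appeared spontaneously and was selected by sorting, no clone was picked, and the cells were grown in culture, where the antibiotic G418 served for selection. The 16 libraries, 4 of each population in each batch, were taken from the 24 of the series, and they are technical replicates of cell populations, so p-values measure the spread between such libraries and not between independently made populations. The sources used here do not say whether the libraries of batch 2 came from new cultures or from RNA already used in batch 1. Genes were compared if they were in both tables, which held for 13915 of the 55471 genes counted in batch 1. Of these, 13030 had enough counts to be tested in both batches.

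CCR7 is the receptor of the chemokines CCL19 and CCL21, which lead dendritic cells and naive T cells to lymph nodes. Podoplanin is a mucin-type membrane glycoprotein of lymphatic endothelium and of some stromal and tumour cells, and it binds the platelet receptor CLEC-2 and the cell's own ezrin and CD44. Tumour cells in culture often keep a low, constant activity of interferon-induced genes, which is set by receptors of type I interferon, by transcription factors such as IRF9, and by sensors of foreign RNA and DNA.

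Total counts lay between 22788542 and 31979835 per library, with a median of 29511603, so that 3 counts, the limit a count of 0 allows, stood for 0.0938 to 0.132 CPM, the count of a gene scaled to the total of its library. Levels of single genes are given in CPM. Differences are log2 fold changes (CCR7-PDPN minus X2) with a standard error (SE). The p-values come from the quasi-likelihood F test of edgeR after Benjamini-Hochberg adjustment. The SE was worked back from the F statistic of that test. It is approximate and can be too small for large changes at low counts. A gene is called higher or lower where the adjusted p is under 0.05 and the absolute log2 fold change above 1. Libraries of a population differed little between batches. Over 10032 well-counted genes, the SD of the log2 ratio of 2 libraries was 0.090 to 0.118 within a population and batch (median 0.105). Between the batches of a population it was 0.0969 to 0.115 (median 0.0995) for libraries of the same number. For libraries of other numbers it was 0.102 to 0.137 (median 0.1135). Between X2 and CCR7-PDPN it was 0.478 to 0.505. Of 6 genes listed as tumour markers, Vim, Krt8, Twist1, Zeb1 and Zeb2 were expressed in both populations and batches, and Krt18 was near 0, at 0.175 CPM in X2 and 0.213 in CCR7-PDPN of batch 1. Among defining genes of other cells in batch 1, Cd3e, Cd8a, Ms4a1, S100a9 and the fibroblast gene Lum had no read. The growth factor receptors Pdgfra and Pdgfrb, listed as fibroblast markers, were expressed, at 158 and 68.9 CPM in X2 and 149 and 63.9 CPM in CCR7-PDPN. Other marker genes also differed between the populations, among them Cd79a of B cells, at 0.499 CPM in X2 and 3.26 in CCR7-PDPN. S100a8 of neutrophils stood at 1.30 and 0.149, and Itgax of dendritic cells at 0.446 and 0.17. The macrophage genes are given with Lyz2.

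Ccr7 and Pdpn followed the labels in every library. Ccr7 stood at 0.527, 0.168, 0.289 and 0.413 CPM in the X2 libraries of batch 1 and at 3095, 3089, 3041 and 2774 CPM in CCR7-PDPN, and in batch 2 at 0.335, 0.179, 0.396 and 0.467 CPM against 3379, 3112, 3144 and 2945 CPM. The groups were far apart, with log2 fold changes of 13.06 and 13.15. Pdpn stood at 0.0702, 0.0838, 0.0963 and 0 CPM in X2 and at 26.3, 26.7, 25.0 and 23.3 CPM in CCR7-PDPN of batch 1. In batch 2 it stood at 0.0745, 0.143, 0.165 and 0.267 CPM against 25.3, 23.5, 23.7 and 25.0 CPM. No X2 library of batch 1 held more than 3 Pdpn reads, and the ratio of summed CPM was 408, with a 95% exact interval of 198 to 1015 that covers counting error only. In batch 2 the fitted log2 fold change of Pdpn was 7.19. No SE is given for Ccr7 and Pdpn, since X2 held few of their reads. These 2 genes were transduced or sorted for and serve as a check of the labels.

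In batch 1, 542 genes were higher in CCR7-PDPN (4.09% of 13261 tested) and 711 were lower (5.36%). In batch 2, 527 were higher (3.96% of 13314) and 755 lower (5.67%). Of the genes tested in both, 424 were higher in both batches (3.25%) and 607 were lower in both (4.66%), and 0 were called in opposite directions. With edgeR's adjusted p alone, 3608 genes rose in both (27.7%) and 3718 fell in both (28.5%). The log2 fold changes of the batches had a Pearson r of 0.961 and a Spearman rho of 0.922 across 13030 genes. Genes are not independent replicates, and the points share the cell lines, the protocol and the gene models. Repetition was not complete. Among the genes tested in both batches, of 505 higher in batch 1, 424 (84.0%) were also called in batch 2, and of 508 higher in batch 2 the same 424 were 83.5%. The 607 genes lower in both were 89.3% of the 680 lower in batch 1 and 89.0% of the 682 lower in batch 2. Genes called in a single batch mostly had the same sign in the other, and part of them lay near its fold change limit. Of 81 genes higher in batch 1 only, 80 had the same sign in batch 2, 63 also had an adjusted p under 0.05 there, and 48 had a log2 fold change between 0.8 and 1. Of 73 lower in batch 1 only, 69 had the same sign, 55 also passed the adjusted p and 36 lay between -0.8 and -1. Of 84 higher and 75 lower in batch 2 only, 81 and 73 had the same sign in batch 1, and 38 and 47 lay within the same limits. The median level of the genes higher in both was 1.36 on the log2 CPM scale, and that of the genes higher in batch 1 only was -0.08.

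**Figure D1:**
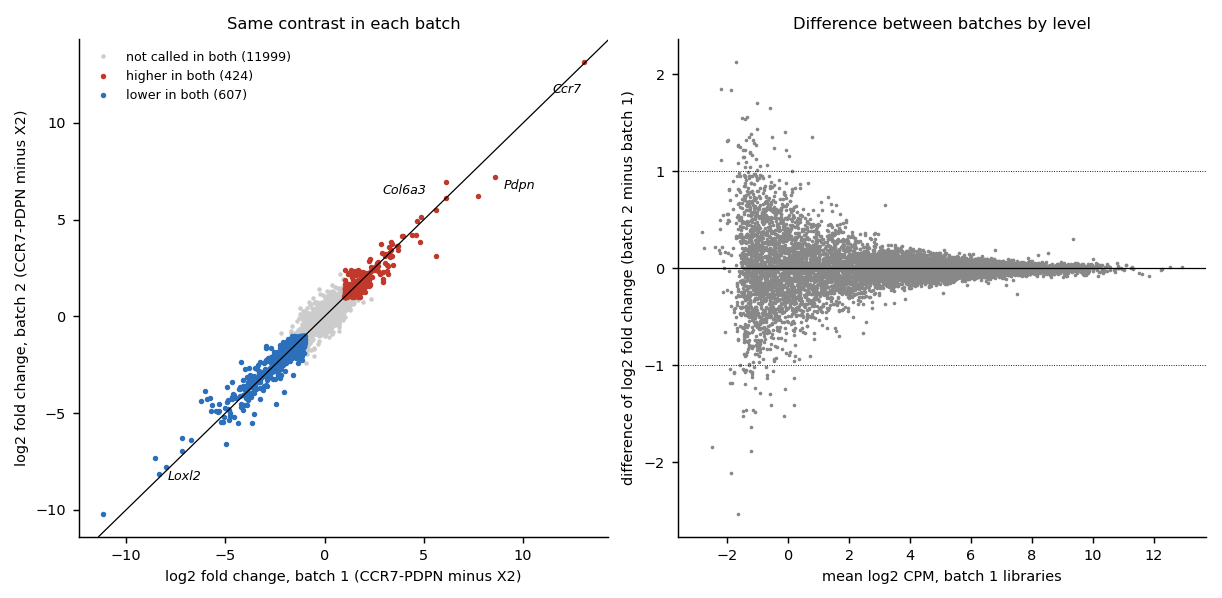
Left, the log2 fold change of CCR7-PDPN minus X2 in batch 1 (x axis) and in batch 2 (y axis), one point per gene, with 424 genes higher in both batches in red, 607 lower in both in blue and a line of equal values. Right, the difference of the log2 fold changes, batch 2 minus batch 1, against the mean log2 CPM in batch 1, with dotted lines at 1 and -1: points spread out at low levels and narrow around 0 at high ones.

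The difference between the batches was then tested itself, in 1 model over the 16 libraries. That model did not pair libraries by number across batches, and a fit that did is given at the end. The edgeR test called 0 of 13400 genes as changed between batches, with 353 (2.63%) at an unadjusted p under 0.05 and a smallest adjusted p of 1. DESeq2 also called 0, with 239 (1.78%) at an unadjusted p under 0.05. A p that misses the threshold does not show equal values, so the intervals matter. The median absolute difference was 0.0421 on the log2 scale, beside a median SE of 0.0677. The 95% interval of the difference lay inside plus or minus 0.5 for 10051 of 13020 genes (77.2%) and inside plus or minus 1 for 11593 (89.0%). Among the genes called in both batches, 672 of 1028 (65.4%) had an interval inside plus or minus 1, and the 356 others had a median level of -1.07 on the log2 CPM scale. Precision followed the counts: the median absolute difference was 0.294 in 1694 genes under a mean log2 CPM of 0 and 0.0218 in 4136 genes at 6 or more. Pearson's r of the fold changes was 0.939 in the former and 0.996 in the latter. Pdpn showed one of the wider intervals, with a difference of -1.41 (95% interval -2.58 to -0.24, adjusted p = 1 by edgeR), and its X2 libraries held at most 8 reads. The pseudogene Rpl10-ps3, named after its values were seen, was the 1 gene that passed the adjusted p with opposite signs, at 0.75 in batch 1 and -0.77 in batch 2. Its reads can be shared with the parent gene and other copies.

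A change of level between batches was measurable in few genes of each population. X2 shifted in 7 genes and CCR7-PDPN in 17 past both thresholds, 18 genes in all, of which 6 passed in both and all 18 had the same sign. Across all genes the shifts of the populations had a Pearson r of 0.222. The 5.8S ribosomal RNA gene n-R5-8s1 was higher in batch 2, by 3.23 on the log2 scale in X2 and 2.86 in CCR7-PDPN. Gm42418, an annotation known to collect ribosomal RNA reads, was higher by 0.99 and 1.30, Lars2, a mitochondrial leucyl-tRNA synthetase, by 1.07 and 0.96, and the small nuclear RNA Rn7sk by 1.00 and 1.44. Rps18-ps3, a pseudogene of a ribosomal protein, stood at -0.43 in X2 (adjusted p = 0.635 by edgeR) and fell by 1.33 in CCR7-PDPN. None of the 17 shifted genes tested in both batches was called between CCR7-PDPN and X2 in both.

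Among genes of a mean log2 CPM of at least 1 in both batches and with a described symbol, the largest rises called in both were of Col6a3, Mylk, Nlrp4f, Acot11 and Eya2, after Ccr7 and Pdpn were set aside. At any level, 27 genes rose by more than 3 on the log2 scale in both batches and 107 fell by as much. Col6a3, the alpha 3 chain of collagen VI, stood at 1.72, 1.80, 2.21 and 1.93 CPM in X2 and 135, 135, 142 and 113 CPM in CCR7-PDPN of batch 1. In batch 2 it stood at 2.23, 2.18, 1.68 and 1.87 CPM against 141.2, 138, 150.0 and 122 CPM. CCR7-PDPN replicate 4 was the lowest of its group in either batch, and its log2 fold changes were 6.12 (SE 0.163) and 6.15 (SE 0.10). Mylk, the myosin light chain kinase that switches on smooth muscle and non-muscle myosin, stood at 3.62, 4.52, 2.95 and 4.03 CPM against 44.6, 46.6, 45.6 and 46.5 CPM in batch 1. Batch 2 gave 3.57, 3.33, 3.92 and 3.90 CPM against 42.7, 48.0, 47.2 and 43.7 CPM. The log2 fold changes of Mylk were 3.64 and 3.65, with an interval of the difference of -0.23 to 0.24.

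Nlrp4f, a member of the NLR family known from the germ line, stood at 1.37, 0.838, 1.16 and 1.48 CPM in X2 and 13.8, 13.0, 12.1 and 12.4 CPM in CCR7-PDPN of batch 1. Batch 2 gave 2.27, 1.36, 1.78 and 0.70 CPM against 13.2, 12.0, 13.5 and 13.0 CPM, with more spread in X2 than in CCR7-PDPN. Acot11, an acyl-CoA thioesterase, stood at 1.40, 2.26, 1.22 and 1.31 CPM against 14.4 CPM in each library of batch 1 (14.38 ± 0.0177, SD, n = 4), and at 1.86, 1.47, 1.29 and 1.50 CPM against 14.1, 13.8, 12.5 and 13.0 CPM in batch 2. Eya2, a transcriptional coactivator with phosphatase activity, stood at 2.77, 1.59, 2.76 and 2.61 CPM against 19.3, 21.3, 19.6 and 19.8 CPM, and in batch 2 at 2.64, 2.40, 1.78 and 2.47 CPM against 19.3, 21.1, 18.4 and 19.9 CPM. Groups did not overlap in either batch for these genes, which the choice of named genes required. The next genes were Tmem176b, Mvd, Atp2c2, Acp5, Col3a1, Kif26a and Trim2, with log2 fold changes from 2.08 to 2.70 in batch 1 and from 2.21 to 2.61 in batch 2. Mvd is an enzyme of the mevalonate pathway, Atp2c2 a calcium and manganese pump of the secretory pathway, Acp5 the tartrate-resistant acid phosphatase and Col3a1 the chain of collagen III. No overlap of the libraries in either batch was seen for 406 of the 424 genes higher in both (95.8%) and 587 of the 607 lower in both (96.7%), and for 50.4% of all tested genes.

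Among genes of a mean log2 CPM of at least 1 in both batches, Rtp4, Ifi44 and Usp18 of the interferon response were 3 of the 5 largest falls. Rtp4, an interferon-induced chaperone of receptors, stood at 12.9, 12.2, 11.7 and 14.8 CPM in X2 and at 0.75, 0.635, 0.699 and 0.601 CPM in CCR7-PDPN of batch 1. Batch 2 gave 13.4, 12.7, 10.7 and 13.6 CPM against 0.439, 0.35, 0.503 and 0.655 CPM, so that the log2 fold changes were -4.22 (SE 0.13) and -4.66 (SE 0.158). Ifi44 stood at 14.3, 12.5, 12.0 and 15.6 CPM against 0.719, 0.731, 0.559 and 0.734 CPM in batch 1, and at 14.7, 11.8, 12.2 and 15.8 CPM against 1.19, 1.15, 0.66 and 0.982 CPM in batch 2. X2 libraries 1 and 4 were the higher ones in both batches. Usp18, which removes the ubiquitin-like protein ISG15 and dampens the type I interferon receptor, stood at 18.6, 16.7, 14.7 and 18.9 CPM against 1.78, 1.21, 0.734 and 0.568 CPM in batch 1. In batch 2 Usp18 stood at 19.0, 17.1, 14.2 and 17.4 CPM against 1.49, 1.31, 0.785 and 0.873 CPM. CCR7-PDPN replicate 1 was the highest of its group in both batches. None of the group reached the X2 libraries, as the choice of named genes required.

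Genes outside the interferon response fell as far. Loxl2, given with the matrix enzymes, fell further (-8.33 and -8.13). It is not in this ranking, since its mean log2 CPM over the libraries did not reach 1 in both batches. Prrx1, a homeobox factor of mesenchyme, stood at 12.7, 13.5, 12.1 and 12.8 CPM in X2 against 0.594, 0.413, 0.384 and 0.634 CPM in batch 1, and at 12.6, 12.3, 14.4 and 13.9 CPM against 0.834, 0.701, 0.691 and 1.02 CPM in batch 2. Its related factor Prrx2 rose, by 1.59 and 1.62. Ubash3b, a phosphatase that restrains tyrosine kinase signalling, stood at 12.2, 12.1, 13.0 and 11.5 CPM against 0.532, 0.826, 0.768 and 0.935 CPM in batch 1 and at 12.7, 12.8, 13.4 and 13.1 CPM against 0.878, 0.478, 0.628 and 0.982 CPM in batch 2. Other large falls were of Fam107b, Slfn2, Oasl2, Lyz2, Tm4sf1 and Dtna, from -3.24 to -3.91 in batch 1 and from -3.22 to -3.95 in batch 2. Of these, Slfn2 and Oasl2 are on the list of interferon-induced effectors given below. Oasl2 belongs to the family of the 2′-5′ oligoadenylate synthetases. Lyz2 codes for lysozyme and is a macrophage marker. The summed level of 5 macrophage markers fell with it, from 51.6 to 60.6 CPM in X2 to 9.05 to 11.5 CPM in CCR7-PDPN of batch 1, nearly all of it Cd68 and Lyz2, while Adgre1 and Mrc1 had at most 2 reads in any X2 library and none in CCR7-PDPN.

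**Figure D2:**
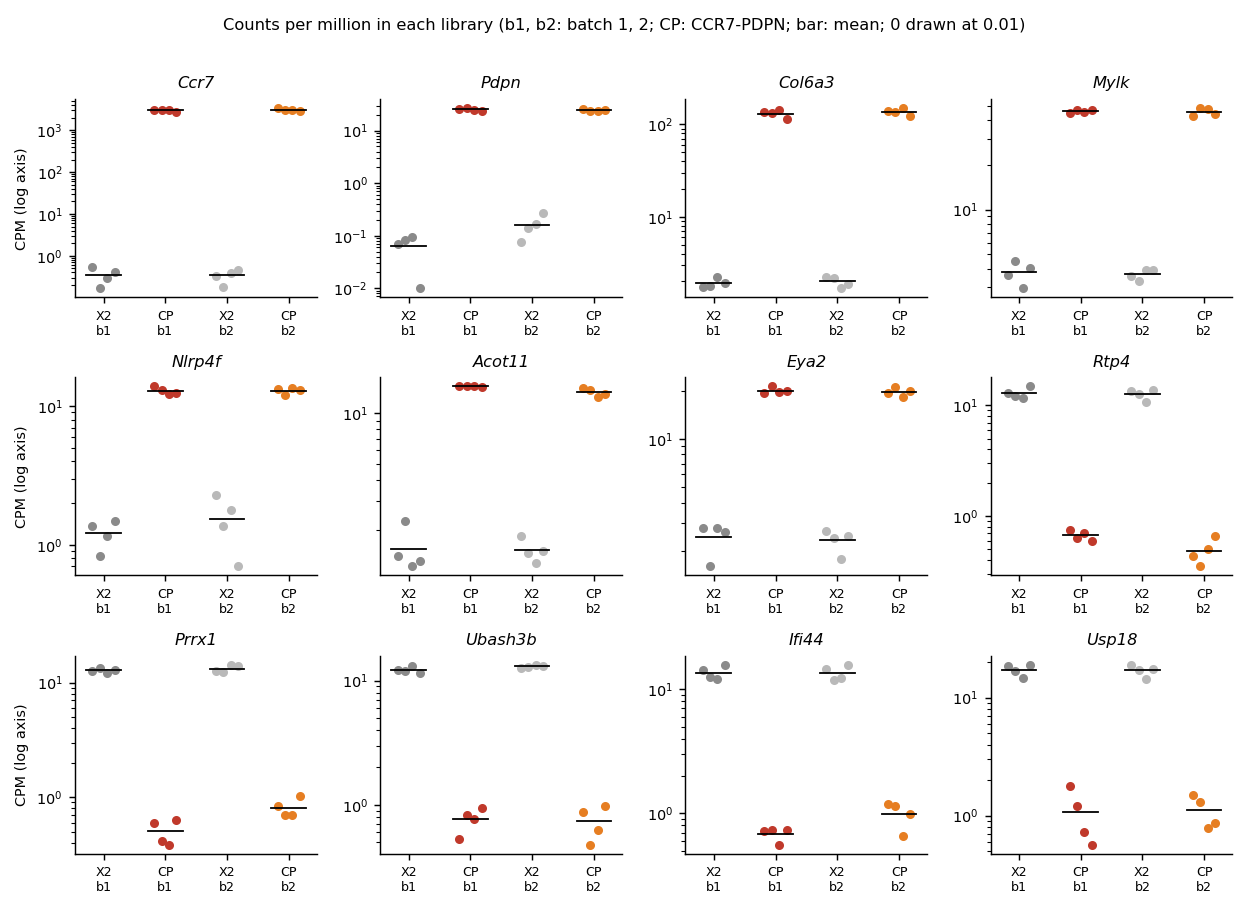
CPM of 12 genes in each of the 16 libraries, on a log axis, for X2 and CCR7-PDPN (CP) of batch 1 (b1) and batch 2 (b2), with points for libraries and a bar for the mean of 4, and with the 1 value of 0 (Pdpn) drawn at 0.01. In each gene the X2 points of both batches sit together, apart from the CCR7-PDPN points of both batches. Genes other than Ccr7 and Pdpn were chosen for no overlap of libraries within a batch.

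Interferon-induced genes fell as a group in both batches. Of 52 tested members of the list of interferon-induced effectors, 33 were lower in both batches past both thresholds and 0 higher, 46 fell with the adjusted p alone and 3 rose (Ifi27, Slfn9 and Ifitm2, by 0.20 to 0.40 in batch 1). The median log2 fold change was -1.51 in batch 1 and -1.56 in batch 2, beside 0.00 over all genes in each batch. All 52 had the same sign in both batches. For this list and the later ones, the shares over all genes were 3.25% higher and 4.66% lower past both thresholds. With the adjusted p alone they were 27.7% and 28.5%. The 2′-5′ oligoadenylate synthetases Oas2 (-3.86 and -4.11), Oas1g (-3.27 and -3.40) and Oas3 (-3.16 and -3.11) fell together, as did the RNA-binding Ifit2 (-2.90 and -2.81) and the guanylate-binding Gbp2 (-2.22 and -1.99). Isg15, the ubiquitin-like modifier, fell (-1.98 and -1.81). Ifit3, with at most 2 reads in any CCR7-PDPN library, had ratios of summed CPM of X2 to CCR7-PDPN of 98.7 (95% exact interval 17.3 to 3939) in batch 1 and 16.1 (7.14 to 45.0) in batch 2. Members of the Oas1 and Ifit families are near copies, and how reads were divided among them is uncertain.

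The signalling genes of the pathway were split. Of 22 tested genes of interferon signalling and nucleic acid sensing, 5 were lower in both batches past both thresholds: the RNA sensors Ifih1 (-3.07 and -3.03), Dhx58 (-1.38 and -1.32) and Ddx58, which codes for RIG-I (-1.33 and -1.29), and the transcription factors Irf7 (-2.65 and -2.56) and Irf9 (-1.78 and -1.87). Stat2, a partner of IRF9, fell (-0.33 and -0.36). The receptor chains Ifnar1 (0.36 and 0.29) and Ifngr2 (0.48 and 0.54) rose, Ifngr1 fell (-0.33 and -0.27), and Irf3, at -0.02 and 0.02, passed the test in neither. The list's median was -0.02 and -0.00. Of 20 tested genes of MHC class I and peptide loading, 18 fell with the adjusted p alone, 6 of them past both thresholds, and 1 rose. The immunoproteasome subunits Psmb9 (-1.5 and -1.38) and Psmb8 (-1.37 and -1.45), the peptide transporter subunit Tap1 (-1.10 and -1.08) and the heavy chain H2-K1 (-1.11 and -1.06) fell. B2m, the light chain of all class I molecules, fell (-0.89 and -0.97). Psmb10 was the exception, at 0.66 and 0.72. Heavy chains are a family of near copies, and H2-T10, at -1.16 and -2.23, lost its adjusted p in batch 1 with DESeq2 and without X2 replicate 1 or 3 or CCR7-PDPN replicate 1, 3 or 4, with values from -0.97 to -1.18.

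The interferon-stimulated response element (ISRE), which IRF9 and its partners bind, was searched in promoters from RefSeq (GRCm38.p6, 250 bases before to 50 after a transcript start) by its core GAAANNGAA on both strands. Promoters were given for 9400 of the 13030 tested genes. The core was in the promoter of 72 of 421 genes lower in both batches (17.1%, exact 95% interval 13.6% to 21%), 21 of 294 higher in both (7.14%, 4.48% to 10.7%) and 779 of 9400 tested genes (8.29%). In the interferon-induced list 26 of 40 held it (65.0%), which was 16 of 24 members lower in both batches and 10 of 16 others. The sterol regulatory element (SRE), searched by the core TCACNCCAC, was in 1 of 19 promoters of cholesterol genes and 134 of 9400 (1.43%). A match is a description of letters, not a bound site. Promoters chosen for holding a match are given here as examples. They are those of the 3 members of the interferon list with the largest mean falls that hold one (Ifit3, Oas1g and Trim30a) and of the cholesterol gene that does (Hmgcs1). Shown are the 250 bases before the start, with each match to the core, on either strand, in capitals. Members that fell further than Oas1g, among them Phf11d, Rtp4 and Oas2, had no match in these bases or no promoter given. The 3 matches of Ifit3 begin 155, 121 and 102 bases before the start, the overlapping pair of Oas1g 18 and 12, that of Trim30a 35, and that of Hmgcs1 137.
Ifit3, chr19:34583279-34583528, plus strand: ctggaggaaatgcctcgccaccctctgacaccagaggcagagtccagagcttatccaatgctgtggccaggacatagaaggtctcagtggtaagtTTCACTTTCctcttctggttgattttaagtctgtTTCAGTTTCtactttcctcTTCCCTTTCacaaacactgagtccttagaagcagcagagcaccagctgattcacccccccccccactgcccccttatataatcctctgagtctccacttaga
Oas1g, chr5:120887614-120887863, minus strand: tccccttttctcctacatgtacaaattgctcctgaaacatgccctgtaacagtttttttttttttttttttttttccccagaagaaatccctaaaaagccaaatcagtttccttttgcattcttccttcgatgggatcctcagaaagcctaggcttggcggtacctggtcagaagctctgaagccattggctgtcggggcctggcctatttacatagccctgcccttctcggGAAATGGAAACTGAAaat
Trim30a, chr7:104465194-104465443, minus strand: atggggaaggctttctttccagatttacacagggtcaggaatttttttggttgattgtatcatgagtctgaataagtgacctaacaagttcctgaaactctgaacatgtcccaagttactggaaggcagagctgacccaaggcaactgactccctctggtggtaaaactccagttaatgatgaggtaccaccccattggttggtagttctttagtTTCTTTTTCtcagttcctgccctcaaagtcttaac
Hmgcs1, chr13:119690101-119690350, plus strand: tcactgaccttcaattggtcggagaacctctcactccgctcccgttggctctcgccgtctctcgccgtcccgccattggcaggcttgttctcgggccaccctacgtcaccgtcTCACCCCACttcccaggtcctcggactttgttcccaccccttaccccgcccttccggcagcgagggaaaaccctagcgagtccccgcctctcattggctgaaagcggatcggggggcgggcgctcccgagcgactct

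Cholesterol genes rose in both batches. Of 27 tested genes of cholesterol synthesis and uptake, 25 rose with the adjusted p alone and 11 past both thresholds, and 0 fell. The median was 0.86 in batch 1 and 0.92 in batch 2. Mvd, mevalonate diphosphate decarboxylase, had the largest rise. It stood at 39.8, 38.8, 38.3 and 33.7 CPM in X2 and at 205, 221, 211 and 215 CPM in CCR7-PDPN of batch 1, and at 37.5, 36.7, 36.2 and 36.4 CPM against 222, 218, 206 and 215 CPM in batch 2. The log2 fold changes of Mvd were 2.53 (SE 0.0994) and 2.58 (SE 0.0332). Hmgcs1, the synthase that makes HMG-CoA, rose from 121 ± 8.61 to 306 ± 12.9 CPM in batch 1 and from 123 ± 10.2 to 306 ± 13.3 CPM in batch 2 (SD, n = 4). Srebf2, the transcription factor of the pathway, rose by 0.35 and 0.33. Ebp (-0.07 and -0.09) and Fdft1 (0.07 and 0.06) did not pass the test in both. Of 16 genes of fatty acid synthesis and desaturation, 11 rose with the adjusted p alone, 0 past both thresholds and 0 fell, with Elovl5 at 0.95 and 0.89 and Fasn at 0.52 and 0.54.

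Chromosomal position separated some of these genes. Chromosome 8 held 115 of the 424 genes higher in both batches, 15.7% of its 733 tested genes, and 112 of them lay in 1 stretch from Cdh5 to Taf5l (chr8:104101625-124021397, GRCm38) whose borders came from earlier results of these data. In that stretch 112 of 220 tested genes were higher in both batches and 3 lower, with a median log2 fold change of 1.04 in batch 1 and 1.02 in batch 2, and it held 26.4% of all genes higher in both. Mvd lies there, as do Atp2c2 of the largest rises and Gins2, Slc7a5, Psmb10 and Il34 of the other lists. No other gene of the cholesterol list does. Chromosome 14 held 51 lower genes (12.1% of 423) and 2 higher ones, with medians of -0.57 and -0.58. Chromosome 9 held 40 higher genes (5.76% of 695), with medians of 0.32 and 0.33. The difference of these medians between batches was not tested. Among genes named in other paragraphs, Irf9 and Loxl2 lie on chromosome 14, and Elovl5, Acp5 and the lowered Ubash3b on chromosome 9. Whether position bears on their changes was not tested.

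**Figure D3:**
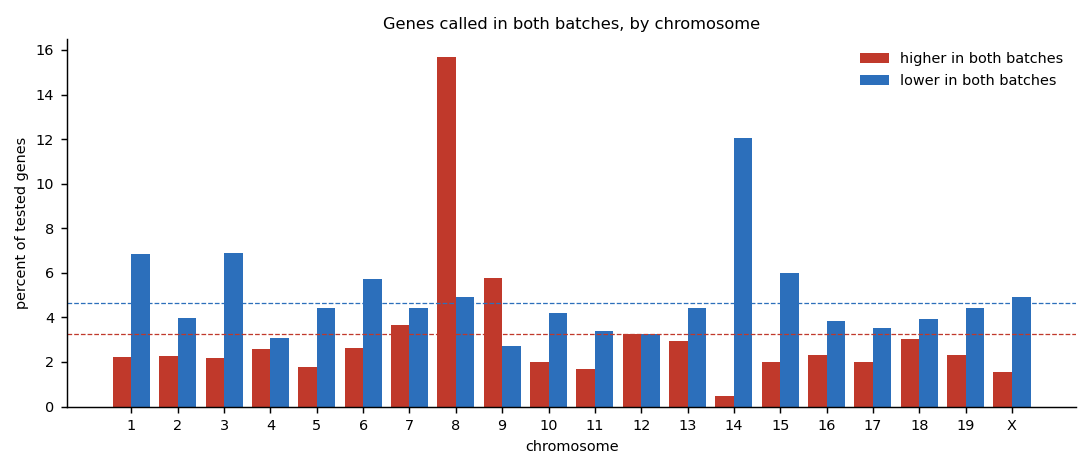
Share of tested genes, in percent, that were higher (red) or lower (blue) in CCR7-PDPN in both batches, for each chromosome, with dashed lines at the shares over all genes, 3.25% and 4.66%. Chromosome 8 stands out for higher genes (15.7%) and chromosome 14 for lower genes (12.1%).

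Matrix genes moved in both directions, and none passed the test with opposite signs in the 2 batches. Of 22 tested collagens, 14 rose with the adjusted p alone and 3 fell, 4 and 2 of them past both thresholds, with medians of 0.46 and 0.53. All 3 common chains of collagen VI rose: Col6a3, Col6a2 (1.37 and 1.36) and Col6a1 (0.81 and 0.83). Per length, Col6a1 remained the most abundant of the 3 in CCR7-PDPN, at 433 ± 16.5 TPM, which also divides by gene length, in batch 1 and 429 ± 21.2 in batch 2, against 85.1 ± 3.73 and 86.1 ± 3.32 for Col6a2 and 41.0 ± 4.07 and 42.9 ± 3.76 for Col6a3 (SD, n = 4). Col3a1 rose from 5.05 ± 0.434 to 25.7 ± 1.55 CPM in batch 1 and from 4.89 ± 0.373 to 26.5 ± 0.642 CPM in batch 2. Col15a1, of basement membrane zones, fell, and in batch 2, where no CCR7-PDPN library held more than 1 read, the ratio of summed CPM of X2 to CCR7-PDPN was 122 (95% exact interval 33.4 to 1011).

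Among 27 proteases, inhibitors and matrix-modifying enzymes, 8 were lower past both thresholds and 0 higher, and 12 fell and 10 rose with the adjusted p alone. The latter shares over all genes were 28.5% and 27.7%. Loxl2, a lysyl oxidase that crosslinks collagen, was all but lost, from 39.2, 39.2, 40.4 and 37.5 CPM in X2 to 0.0625, 0.159, 0.175 and 0.0668 CPM in CCR7-PDPN of batch 1. Batch 2 gave 40.4, 38.3, 39.9 and 37.5 CPM for Loxl2 against 0.175, 0.191, 0.0942 and 0.0728 CPM, which is 2 to 6 reads a library. Slpi (-3.0 and -3.04), Mmp3 (-2.81 and -3.10) and the plasminogen activators Plat (-2.65 and -2.76) and Plau (-1.10 and -1.03) fell, and Adam10, a membrane shedding protease, rose by 0.69 and 0.68. Of 26 other matrix proteins, 7 were lower past both thresholds and 0 higher, among them Thbs2 (-4.19 and -4.52), the matricellular Ccn1 (-1.85 and -1.86) and Ccn2 (-1.94 and -1.93), and Ltbp1 (-1.71 and -1.74), which holds latent TGF-beta. Tnc, tenascin C, rose by 0.63 and 0.61. Of 13 integrins, 5 were lower past both thresholds, led by Itgb7 (-2.34 and -2.35), and Itga5, a fibronectin receptor chain, rose by 0.35 and 0.36.

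Markers of epithelial and mesenchymal state held both rises and falls. Of 18 tested mesenchymal genes, 6 rose and 7 fell with the adjusted p alone, with medians of -0.07 and -0.07. Over all genes 27.7% rose and 28.5% fell by that measure. Vim, at 0.06 and 0.06, did not pass the test in both, Snai1 rose by 0.35 and 0.34, S100a4 rose by 0.86 and 0.84, and Axl fell (-0.77 and -0.78). Of 8 tested epithelial genes, 2 rose and 4 fell, with medians of -0.68 and -0.53, and 2 were lower and 0 higher past both thresholds. The factors Grhl2 (-1.38 and -1.41) and Ovol1 (-1.04 and -1.25) fell, as did the keratin Krt7 (-1.25 and -0.90), while the factor Elf3 (0.70 and 1.04) and the keratin Krt8 (0.37 and 0.41) rose. Muc1, at -1.01 and -0.89, passed edgeR's adjusted p in both batches but DESeq2's in neither. In the contractile and actin-binding list, 10 of 21 fell and 6 rose. Acta2, smooth muscle actin, fell (-1.25 and -1.20), while Mylk and Smtn (0.75 and 0.71) rose.

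**Figure D4:**
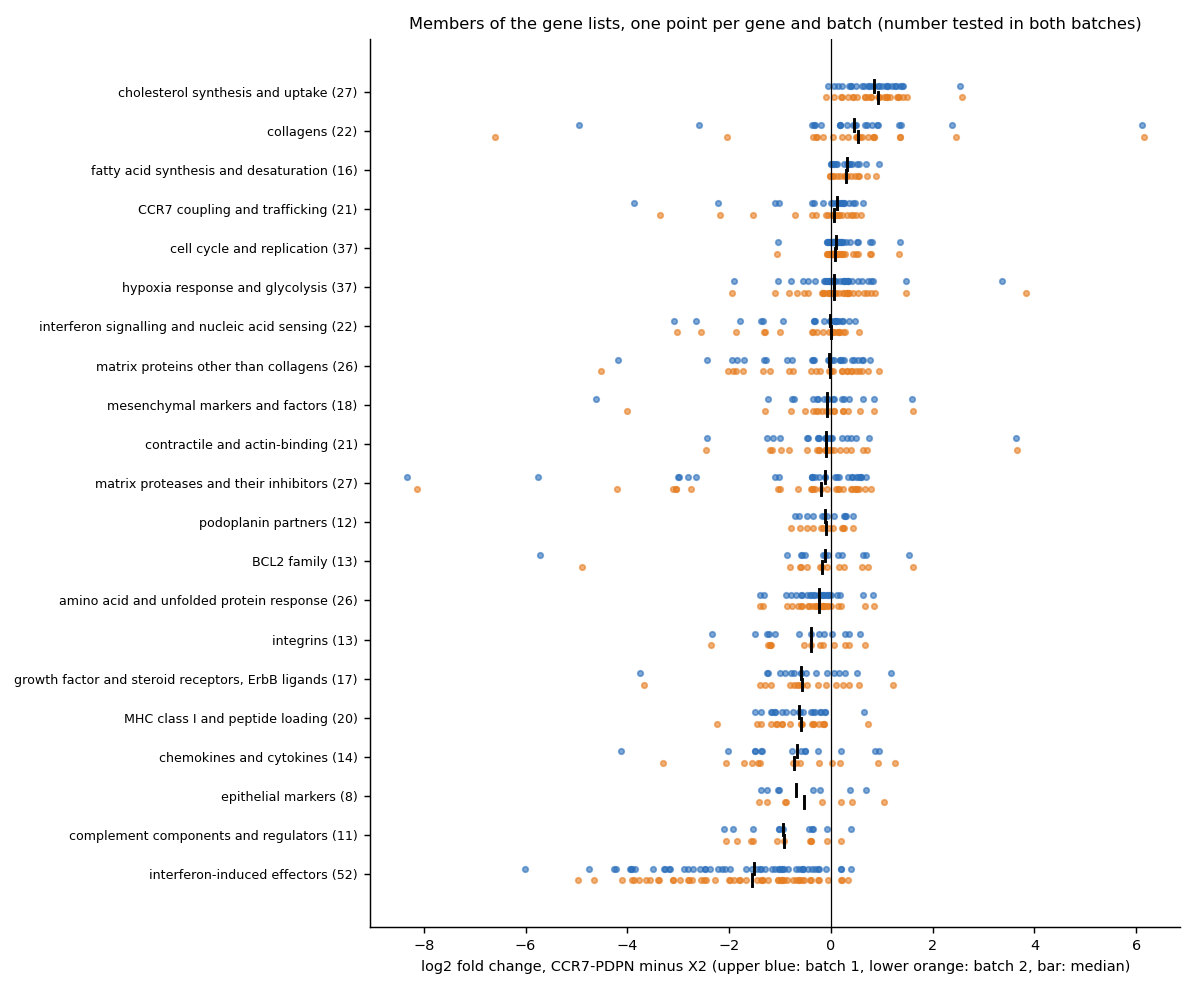
Log2 fold change of CCR7-PDPN minus X2 for each tested member of 21 gene lists, in batch 1 (blue, upper points) and batch 2 (orange, lower points), with a bar at the median of the list in each batch and lists ordered by the median of batch 1. Interferon-induced effectors have the lowest median (-1.51 and -1.56) and cholesterol synthesis and uptake the highest (0.86 and 0.92).

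Secreted signals fell more often than they rose. Of 14 tested chemokines and cytokines, 10 fell and 2 rose with the adjusted p alone, and 6 were lower past both thresholds. Ccl2, which attracts monocytes, fell from 81.6 ± 2.19 to 28.5 ± 1.01 CPM in batch 1 and from 79.0 ± 0.863 to 26.5 ± 1.99 CPM in batch 2 (SD, n = 4). Ccl7 (-2.02 and -2.06), Lif (-1.35 and -1.71), Il11 (-1.5 and -1.43) and Il7 (-4.13 and -3.30) fell. Ccl28 (0.94 and 1.26) and Il34 (0.88 and 0.92) rose. Of 11 complement genes, 10 fell and 0 rose, 5 of them past both thresholds, with medians of -0.94 and -0.92. C3, on which the complement pathways converge, fell (-2.10 and -2.06), as did the proteases of C1, C1s1 (-1.92 and -1.84) and C1ra (-1.53 and -1.56).

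Of 21 tested genes that couple CCR7 to the cell or move it in the cell, 10 rose and 6 fell with the adjusted p alone. Past both thresholds 0 rose and 3 fell. Over all genes the shares were 27.7% and 28.5% with the adjusted p alone, and 3.25% and 4.66% past both thresholds. Gnai2, a G protein alpha subunit of the inhibitory class that CCR7 uses, rose by 0.62 and 0.59, and Rhoa, a GTPase of cell migration, by 0.44 and 0.43. Rgs16, which ends G protein signals, fell (-2.22 and -2.18). The arrestins Arrb1 (-0.16 and -0.06) and Arrb2 (-0.00 and -0.09) did not pass the test in both. None of 12 partners of podoplanin passed the fold change limit, while 4 rose and 6 fell with the adjusted p alone. Ezr, ezrin, rose by 0.29 and 0.26 and Cd44 fell (-0.35 and -0.36).

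Of 17 growth factor receptors, steroid receptors and ErbB ligands, 4 were lower and 1 higher past both thresholds. The ligands Ereg (-1.26 and -1.29), Areg (-0.90 and -0.80) and Hbegf (-0.72 and -0.73) fell, as did the vitamin D receptor Vdr (-1.01 and -1.39), while the hormone Fgf21 (1.18 and 1.23) and Fgfr1 (0.51 and 0.55) rose. In the hypoxia and glycolysis list, 17 of 37 rose and 7 fell with the adjusted p alone, with medians of 0.07 and 0.07. The shares over all genes were 27.7% and 28.5%. The carbonic anhydrases parted, with Car9 at 1.47 and 1.48 and Car12 at -1.91 and -1.95. Vegfa, at 0.11 and 0.09, and Slc2a1, at -0.05 and -0.02, did not pass the test in both. Of 37 cell cycle genes, 19 rose and 1 fell, but 1 and 1 past both thresholds, Gins2 (1.36 and 1.34) and Tfdp1 (-1.04 and -1.07), and Mki67 stood at -0.07 and -0.08. In the BCL2 family, Pmaip1, which codes for the death-promoting NOXA, fell from 6.40 ± 0.663 to 0.113 ± 0.0723 CPM in batch 1 and from 6.55 ± 0.272 to 0.212 ± 0.0704 CPM in batch 2, and Bmf rose by 1.54 and 1.61. Of 26 genes of the amino acid and unfolded protein response, 17 fell and 4 rose with the adjusted p alone. Atf3 fell (-1.39 and -1.39), Hspa5, the main chaperone of the endoplasmic reticulum, fell (-0.58 and -0.57), and Slc7a5, a transporter of large amino acids, rose by 0.82 and 0.85. Over the 21 lists, 458 genes were tested in both batches, of which 22 were higher and 97 lower in both past both thresholds. Among all genes tested in both batches, 3.25% were higher and 4.66% lower.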

How the data were processed

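RNA was read as single-end TruSeq Stranded mRNA libraries on a NextSeq 550 (75 bases) and mapped by the authors to GRCm38/mm10. The authors deposited raw counts per Ensembl gene, in 1 table per batch. The first is a full table, the second was reduced by a filter that is not given in the sources used here, as are the strand setting and the versions of aligner and counter. Groups came from the labels. Columns of other derivatives entered the fit of their batch. There they bore on the spread, the filter on counts, the TMM factors and the mean log2 CPM of a gene.

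Each batch was fitted over its 3 groups with edgeR 4.0.16 (quasi-likelihood F test, robust, TMM factors, filterByExpr) in R 4.3.3, with Benjamini-Hochberg adjustment over all genes tested. The difference between batches was a contrast in 1 fit of the 16 libraries. The script was tested on simulated data. CPM are counts scaled to a library's total, TPM also divide by the deposited gene length, and low-count ratios have exact intervals that cover counting error only. The genes compared, the lists and the borders on chromosome 8 were chosen with earlier results of these data known. Genes named are the 12 largest rises and falls called in both batches, a mean level of 1 or more on the log2 CPM scale and no overlap of libraries, with predicted genes passed over, and up to 5 members per list with the largest changes. Other list members were named after their values were seen, for a known role or as exceptions. Alternatives were the tools DESeq2 1.42.0 and glmTreat, factors by RLE or upper quartile, other filters, a fit of X2 and CCR7-PDPN alone, replicate blocks, and leaving out each library. A few members of the lists are counted but not reported by name here.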

Additional observations from a re-analysis of the deposited data

Results flagged for a closer look

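In 3 of 52 groups of 4 libraries examined, 1 library stood far from the other three, and chance alone gives about 1 in 20 such groups. Ccr7, the transduced receptor, was at 2774 CPM in CCR7-PDPN replicate 4 of batch 1, with the others between 3041 and 3095. Eya2, the coactivator, was at 1.59 CPM in X2 replicate 2 of batch 1, with the others between 2.61 and 2.77. Ifi44, the interferon-induced gene, was at 0.559 CPM in CCR7-PDPN replicate 3 of batch 1, with the others between 0.719 and 0.734. None of these values reached the other population, which for Eya2 and Ifi44 the choice of named genes required.

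Some genes of batch 1 have no counterpart in the reduced table of batch 2 and so could not be compared between batches. Of 64 such genes tested in batch 1, edgeR called 10 higher in CCR7-PDPN and 7 lower. Over all genes tested there, 4.09% were higher and 5.36% lower. Mndal, an interferon-inducible gene of the PYHIN family, had a log2 fold change of -4.14 (adjusted p = 2.38e-06), from a mean of 0.511 CPM in X2 to 0.0241 in CCR7-PDPN. Scd3, a fatty acid desaturase, stood at -1.18, from 0.35 to 0.15 CPM. Both were named after their values were seen.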

How the results depend on the processing

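The counts of genes past both thresholds moved most with the thresholds themselves. With the adjusted p alone, edgeR gave 4018 higher and 4053 lower genes in batch 1, 4258 and 4368 in batch 2, and 3608 and 3718 in both. The list members called in both went from 119 to 361, and the share of lower genes with an ISRE core from 17.1% to 10.2%. Tested against a log2 fold change of 1 (glmTreat), the counts were 253 and 422, 262 and 449, and 211 and 372. At a mean log2 CPM of at least 1 they were 250 and 280, 248 and 311, and 220 and 251, with an r between batches of 0.987. Without a filter on low counts, batch 1 had 1176 lower genes and r was 0.937, since many more low genes entered. DESeq2 gave 542 and 711, 531 and 754, and 427 and 609, all within 1.5 times. Each batch was fitted alone, so leaving out a library changed only the counts of its own batch. Leaving out each library of batch 1 gave 534 to 571 higher and 725 to 787 lower genes there. For batch 2 the ranges were 543 to 591 and 773 to 813. Over all 16 omissions, 413 to 445 genes were higher and 605 to 634 lower in both. The same omissions gave 113 to 120 list members, 16.8% to 17.3% with an ISRE core, an r of 0.953 to 0.958, and 0 genes that differed between batches. Of 5898 values of the named genes under the alternatives, 0 changed direction and 110 lost their threshold, mostly under glmTreat. These values include fits without a library of the other batch, which could not change. H2-T10, Muc1, Rac2 and Grk4 also lost it in some fits without 1 library. Genes under about 1 CPM limit what can be said of equality between batches.

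A replicate block over the shared numbers gave 540 higher and 708 lower genes in batch 1, 524 and 757 in batch 2, 421 and 605 in both, 117 list members and 0 genes that differed between batches. Deviations of same-numbered X2 and CCR7-PDPN libraries correlated at -0.104 to 0.141 in batch 1 and -0.048 to 0.174 in batch 2. For libraries of other numbers the ranges were -0.238 to 0.221 and -0.221 to 0.192. Whether same-numbered libraries of a batch share more than a number was not tested. Between batches, deviations of same-numbered libraries correlated at 0.069 to 0.352 in X2 and 0.117 to 0.393 in CCR7-PDPN. Those of other numbers correlated at -0.168 to 0.111 and -0.178 to 0.081. Each batch 1 library correlated best with the batch 2 library of its own number. This pairing comes from the data and not from the labels. Whether the batches share cultures or RNA was not tested. A replicate block across batches, added after seeing the data, gave 0 genes past both thresholds by edgeR, 1 at the adjusted p and 587 at an unadjusted p under 0.05.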
